A study of Mus musculus with 36 samples.

Results

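TBP sites that both undeleted mouse embryonic stem (ES) cell lines shared, and that had no called TBP summit nearby after deletion of Taf7 or of Taf10, numbered 347. They were chosen from the 2664 nuclear summits of the RT7 EtOH list. A site was taken when the RT10 EtOH list had a summit within 250 bp and neither 4-OHT list had a summit within 1000 bp. Of the 2664 summits, 1732 were shared by the EtOH lists, so that the sites missing after both deletions made up 20% of the shared sites. The RT7 cells have the genotype R26CreERT2/+;Taf7flox/flox and the RT10 cells R26CreERT2/+;Taf10flox/flox. All groups therefore carry the Cre recombinase fused to an oestrogen receptor at the Rosa26 locus, and all were grown with serum, leukaemia inhibitory factor, CHIR99021 and PD0325901. RT7 and RT10 cells received ethanol (EtOH) as the control, or 4-hydroxytamoxifen (4-OHT), which induces the deletion of the floxed alleles, from day 1 to day 3 after plating. TBP was mapped by CUT&RUN, in which a nuclease tethered to an antibody cuts out the DNA around the protein. Each line and treatment had 2 TBP libraries and 1 IgG control library, and 1 deposited list of TBP summits over IgG, with a score that is the −log10 of the q-value at the summit. As each group had 1 list, no comparison of treatments could be checked against replicates. Read depth is unknown, the loss of TAF7 or TAF10 was not checked here, and each genotype is represented by 1 cell line. No line without floxed alleles received 4-OHT. Effects of 4-OHT or of the recombinase therefore cannot be told apart from those of the deletions.

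TBP, the TATA-binding protein, nucleates the preinitiation complex of RNA polymerase II as part of TFIID, a complex of TBP and TBP-associated factors (TAFs). TAF7 is a subunit of TFIID, and TAF10 is a subunit of both TFIID and SAGA, a coactivator complex. TBP also takes part in initiation by RNA polymerases I and III, in complexes with other partners. A TATA box lies a short way before the start of some RNA polymerase II genes, and many others lack one and carry CCAAT boxes, bound by NF-Y, or GC boxes, bound by Sp and Klf factors.

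The sites that the rule selected are shown first by the promoters at which they lay. The 5 protein-coding sites of highest EtOH score and the promoter of Zfp42, which encodes the ES cell marker REX1, are shown from 140 bases before to 10 after the annotated start (RefSeq, GRCm38.p6, the assembly of mm10). The regions are chr14:52104012-52104161, minus strand for Hnrnpc, chr7:110061562-110061711, plus strand for Zfp143, chr17:35841358-35841507, plus strand for Mdc1, chr8:83955554-83955703, plus strand for Asf1b, chr11:29692758-29692907, plus strand for Rtn4 and chr8:43307000-43307149, minus strand for Zfp42. Capitals mark CCAAT and GGGCGG on either strand (ATTGG and CCGCCC on the other one). None of the 6 had TATAAA or TATATA between 50 and 15 bases before the start, and each had at least 1 CCAAT box in the window shown. Over the 669 promoters of all shared sites, 7.03% had such a TATA box, and 56.4% held CCAAT in a longer window of 300 bases. The 6 were chosen by score or as a marker, so they are examples and show no trait of the missing sites. Among further sites of high score, the promoter of Ephb3 had no CCAAT box in the 300 bases, and that of Eif5 none before the start. Of 17 promoters at named protein-coding sites, 14 held one.
Hnrnpc: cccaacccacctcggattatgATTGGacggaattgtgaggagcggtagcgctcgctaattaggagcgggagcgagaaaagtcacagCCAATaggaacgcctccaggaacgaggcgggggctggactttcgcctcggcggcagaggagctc
Zfp143: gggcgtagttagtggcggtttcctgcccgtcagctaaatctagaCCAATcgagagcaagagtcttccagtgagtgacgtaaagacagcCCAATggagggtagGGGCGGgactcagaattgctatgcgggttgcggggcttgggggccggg
Mdc1: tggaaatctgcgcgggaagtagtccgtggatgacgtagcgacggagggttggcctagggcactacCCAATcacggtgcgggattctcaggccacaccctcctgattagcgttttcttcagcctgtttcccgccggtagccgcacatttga
Asf1b: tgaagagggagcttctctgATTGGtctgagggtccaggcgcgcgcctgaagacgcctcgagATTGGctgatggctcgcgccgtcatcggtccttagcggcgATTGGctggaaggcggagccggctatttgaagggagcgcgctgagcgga
Rtn4: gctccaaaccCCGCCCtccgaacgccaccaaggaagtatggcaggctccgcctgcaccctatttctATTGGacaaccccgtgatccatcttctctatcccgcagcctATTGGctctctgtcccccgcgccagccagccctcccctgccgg
Zfp42: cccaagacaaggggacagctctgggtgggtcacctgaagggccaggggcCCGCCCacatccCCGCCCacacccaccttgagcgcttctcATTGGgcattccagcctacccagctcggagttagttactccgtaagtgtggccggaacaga

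Among all promoters at the missing sites 4 had such a TATA box, those of Tob1 (chr11:94211314-94211463, plus strand), Irf8 (chr8:120736218-120736367, plus strand), Errfi1 (chr4:150854930-150855079, plus strand) and H2ac1 (chr13:23934297-23934446, plus strand), and they are printed to show where it lay, with TATAAA in capitals as well. The motif began 47 bases before the start at Tob1, 31 at Irf8, 28 at Errfi1 and 32 at H2ac1. Their scores were 8.42 in RT7 and 4.06 in RT10 at Tob1, an antiproliferative gene, 4.27 and 7.48 at Irf8, a transcription factor of the interferon response, 5.57 and 3.33 at Errfi1, an inhibitor of EGF receptor signalling, and 3.01 and 5.84 at H2ac1. None of the 4 scored 10 or more in either list.
Tob1: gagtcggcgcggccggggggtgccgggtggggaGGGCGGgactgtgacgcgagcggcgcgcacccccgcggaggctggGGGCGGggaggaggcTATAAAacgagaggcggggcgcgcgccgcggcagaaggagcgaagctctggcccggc
Irf8: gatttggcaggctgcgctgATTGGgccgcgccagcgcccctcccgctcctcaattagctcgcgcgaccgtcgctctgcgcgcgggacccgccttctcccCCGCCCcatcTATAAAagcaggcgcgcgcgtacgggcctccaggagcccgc
Errfi1: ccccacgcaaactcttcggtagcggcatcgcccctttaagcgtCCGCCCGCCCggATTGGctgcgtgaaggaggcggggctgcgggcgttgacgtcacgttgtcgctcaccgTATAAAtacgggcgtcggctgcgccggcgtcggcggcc
H2ac1: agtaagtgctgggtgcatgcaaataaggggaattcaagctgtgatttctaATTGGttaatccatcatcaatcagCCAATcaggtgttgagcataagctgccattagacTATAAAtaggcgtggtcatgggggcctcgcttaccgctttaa

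For comparison, 4 promoters with a TATA box at which both 4-OHT lists had a summit are those of Tcta (chr9:108306150-108306299, minus strand), Slit2 (chr5:47983015-47983164, plus strand), Sephs2 (chr7:127274050-127274199, minus strand) and Taf13 (chr3:108571559-108571708, plus strand). They have the 4 highest mean scores of the 7 TATA promoters in the comparison set described below. In Slit2 and Sephs2 TATATA and TATAAA overlapped. The RT7 EtOH summit lay after the annotated start at 6 of these 7 promoters and at 2 of the 4 missing ones (Irf8 and H2ac1).
Tcta: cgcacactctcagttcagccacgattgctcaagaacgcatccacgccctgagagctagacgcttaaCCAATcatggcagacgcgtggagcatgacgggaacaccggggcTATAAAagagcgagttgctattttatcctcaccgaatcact
Slit2: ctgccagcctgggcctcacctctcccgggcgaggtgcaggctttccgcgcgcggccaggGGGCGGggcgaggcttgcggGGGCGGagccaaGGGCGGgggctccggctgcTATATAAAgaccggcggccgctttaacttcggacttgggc
Sephs2: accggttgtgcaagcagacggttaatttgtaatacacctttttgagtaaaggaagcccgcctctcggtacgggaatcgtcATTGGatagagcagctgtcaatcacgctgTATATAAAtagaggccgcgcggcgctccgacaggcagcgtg
Taf13: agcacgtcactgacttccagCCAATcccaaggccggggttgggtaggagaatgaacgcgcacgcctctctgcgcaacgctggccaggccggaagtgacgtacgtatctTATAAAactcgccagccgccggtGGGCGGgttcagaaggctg

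The EtOH scores of the missing sites were low within both lists. In RT7 they ran from 1.51 to 26.8 with a median of 4.68, against a median of 7.45 over all shared sites. In RT10 they ran from 1.41 to 19.9 with a median of 4.93, against 9.10 over all shared sites. Of the 347 sites 12 scored at least 10 in both lists, out of 530 shared sites that did. The RT7 score was the higher one at 149 sites, but scores of different lists are not on one scale, since depth is unknown.

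**Figure D1:**
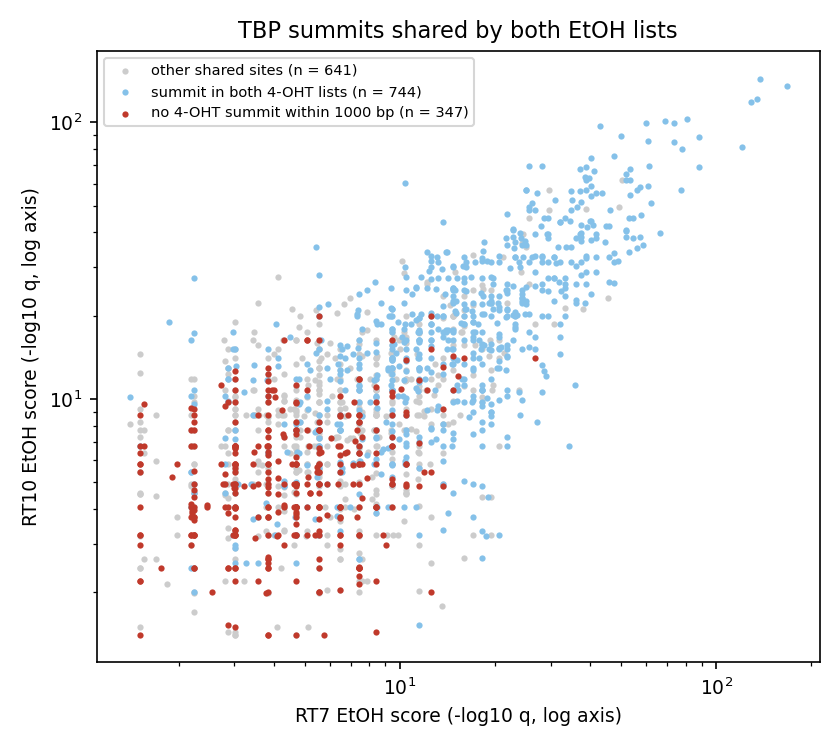
Score (−log10 q) of each of the 1732 shared TBP sites in the RT7 EtOH list (x axis, log scale) and the RT10 EtOH list (y axis, log scale), 1 point per site. The 347 sites without a 4-OHT summit within 1000 bp lie toward the lower left, up to 26.8 in RT7 and 19.9 in RT10, and the 744 sites with a summit in both 4-OHT lists reach the upper right.

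The share of missing sites changed with the mean of both EtOH scores in every step when the shared sites were ordered by it and divided into 5 groups of equal size. In the lowest group (mean score 1.46 to 4.88) 47.6% were missing (42.2 to 53.0, exact 95% binomial interval, here and below for counting error only). In the following groups the shares were 31.5% (26.6 to 36.7), 15.9% (12.2 to 20.2) and 4.91% (2.89 to 7.75). In the highest group (17.7 to 151) 1 site of 347 was missing, that between Rpgrip1 and Hnrnpc. The share with a summit of both 4-OHT lists within 250 bp went the other way, from 11% to 88.8%. These shares use the lists that chose the sites and are a description. The mean takes both scores as they stand, though the lists are not on one scale. A high score in 1 list can therefore place a site high, as at Ddit3 (5.57 in RT7 and 19.9 in RT10).

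**Figure D2:**
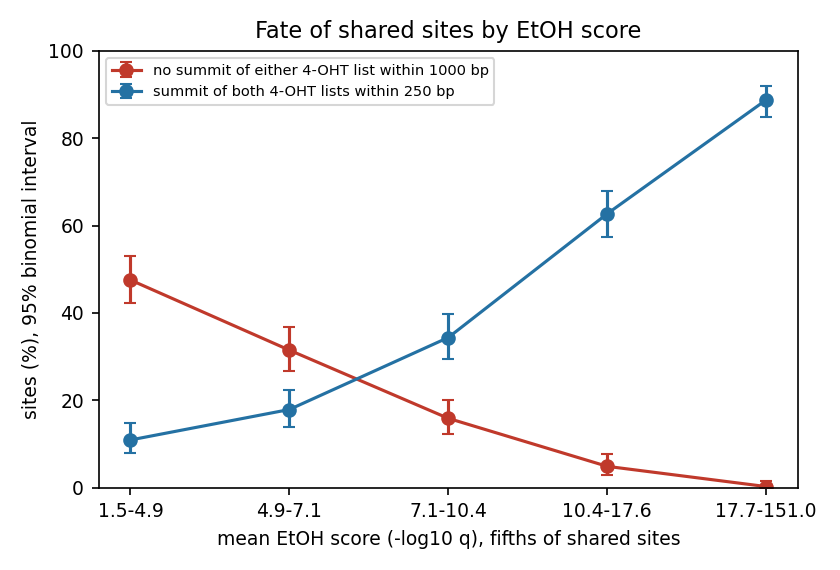
Percent of shared sites with no summit of either 4-OHT list within 1000 bp, and with a summit of both within 250 bp, in 5 groups of equal size by mean EtOH score (−log10 q), with exact 95% binomial intervals. The missing share goes from 47.6% to 0.288% and the kept share from 11% to 88.8% from the lowest to the highest scores.

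In each line by itself, 43.3% of the shared sites had no RT7 4-OHT summit within 1000 bp (750 sites) and 26.5% no RT10 4-OHT summit (459 sites). The 347 sites missing in both were 46.3% of the former and 75.6% of the latter. Sites missing in RT7 alone numbered 403 and sites missing in RT10 alone 112. The RT7 4-OHT list held 1379 summits and the RT10 4-OHT list 2188, against 2666 and 3102 in EtOH. When only as many top-scoring summits of each EtOH list were kept as its 4-OHT list held, 88 of 1015 shared sites (8.67%) were missing. All of them were among the 347 by construction, as the 4-OHT lists were unchanged and shortening the EtOH lists can only remove sites. Whether TBP left these sites in all cells, in some cells, or fell under the calling threshold cannot be told apart in these lists.

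At protein-coding gene ends the missing sites of highest mean score lay next to genes of varied function. The highest lay between Rpgrip1 and Hnrnpc, 208 bp before a start of Hnrnpc, which encodes a protein that binds nascent transcripts. Its score was 26.8 in RT7 EtOH and 14.0 in RT10 EtOH, and the nearest 4-OHT summits lay 1013813 bp (RT7) and 81582 bp (RT10) away. Zfp143, which encodes a zinc finger transcription factor, had scores of 12.6 and 19.9, with both EtOH summits at the same base (position 110061668 of chromosome 7), 34 bp before the start. Each of these 2 sites scored above the upper quartile of its list in both lines (11.5 in RT7 and 11.6 in RT10), and at both the nearest 4-OHT summit was farther away than 55 kb.

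The other sites of this group are given by what the genes are known for, not by rank. Mdc1, which encodes an adaptor of DNA damage signalling, had scores of 15.9 in RT7 and 14.0 in RT10, 42 bp before its start on chromosome 17 (gene 35841495 to 35859670), and its nearest 4-OHT summits lay 19625 and 19786 bp away. Asf1b, a chaperone of histones H3 and H4, scored 15.3 and 12.1. Arid4b, a subunit of the Sin3 histone deacetylase complex, and Ggps1, which makes geranylgeranyl diphosphate, shared a site that scored 9.42 in RT7 and 16.3 in RT10. Nabp1, which encodes a protein that binds single-stranded DNA, scored 5.57 and 16.3. Of these 4 sites those at Mdc1 and Asf1b scored above 10 in both lists, and the others only in RT10.

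Ddit3, which encodes the stress-response transcription factor CHOP, scored 5.57 in RT7 and 19.9 in RT10, with summits 2 bp apart, and its summit also lay at an end of Mbd6. Eif5, a translation initiation factor, scored 12.2 and 10.8, and Rps21, a protein of the small ribosomal subunit, 5.08 and 16.3. Chchd2, which encodes a mitochondrial protein, scored 13.7 and 9.22. Uqcrq, a subunit of respiratory complex III, and Gdf9, an oocyte growth factor, shared a site that scored 10.1 and 10.8. The site at Catsperd and Lonp1, which encodes a protease of the mitochondrial matrix, scored 4.31 and 16.3. Of the genes for mitochondrial proteins the scores were near 10 in both lists at Chchd2 and Uqcrq, and above 10 only in RT10 at Lonp1.

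The remaining protein-coding sites among the 20 of highest mean score were Rtn4, a reticulon of the endoplasmic reticulum (13.7 in RT7 and 13.1 in RT10), Ephb3, an ephrin receptor (10.4 and 13.9), Nufip2 (11.5 and 11.7), Zfp42 (5.08 and 16.3), Akap12, a scaffold of protein kinase A (9.42 and 10.2), Wdr18 (8.42 and 11), Nr1d2, a nuclear receptor of the circadian clock (7.45 and 11.8), and Nfatc2ip (8.42 and 9.74). At Zfp42 the RT7 summit lay at position 43307158 of chromosome 8, 149 bp before the start (gene 43295067 to 43307009), and the RT10 EtOH summit 26 bp from it. The nearest RT10 4-OHT summit was 13812 bp away and the nearest RT7 4-OHT summit 1672260 bp.

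The median mean score was 5.30 over the missing sites with a protein-coding end nearest, 5.29 at other gene ends, 4.88 inside genes and 4.82 between genes. A site between genes on chromosome 3 (position 88577999) scored 14.8 in RT7 and 14.3 in RT10, but lay 2334 bp from an RT10 4-OHT summit and 4979 bp from an RT7 4-OHT summit, and 796 bp from the pseudogene Rtraf-ps. A site inside Hexim2, which encodes an inhibitor of the elongation factor P-TEFb, scored 12.6 and 15.2, and another between genes on chromosome 3 (position 10305842) 14.8 and 10.8. The next sites inside genes lay in Gm41067 (9.42 and 10.6), in Cdc37l1 and Ak3 (10.4 and 8.97), in 1700008C04Rik (10.4 and 8.72) and in Nod1 (13.7 and 4.83). Between genes they lay at position 31808252 of chromosome 17 (9.42 and 8.72), 134926894 of chromosome 5 (7.15 and 9.74) and 102399605 of chromosome 15 (8.42 and 7.73). At ends of genes that do not encode proteins the highest were 4930583K01Rik (7.45 and 11.8), Gm33560 (3.01 and 12.6), Snhg3, a host gene of small nucleolar RNA (9.42 and 4.93), Gm40251 (4.68 and 8.23) and 2810013P06Rik with Ankrd11 (5.08 and 7.71). The site at 4930583K01Rik also lay 255 bp before an annotated start of the protein-coding gene Smg1. Of the 12 missing sites with a score of at least 10 in both lists, 9 had a protein-coding end nearest and 3 lay inside or between genes. The 530 shared sites with such scores were not split by class, so these counts show no trait of the missing sites.

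The position of the missing sites was compared with that of shared sites with a summit of both 4-OHT lists within 250 bp, of which there were 744 (43%). As their scores were higher (median 14.4 in RT7 and 16.3 in RT10), each missing site was paired with the unused site nearest to it in both log2 scores, at most 0.5 log2 units away in each line. A partner was found for 172 missing sites, and the other 175, with median scores of 3.49 in RT7 and 4.06 in RT10, had none. The paired sets had median scores of 6.38 and 5.57 in RT7 and 6.84 and 6.75 in RT10, for missing and comparison sites. For example, the site at Rpgrip1 and Hnrnpc was paired with that at Ppp1r10 and Mrps18b (28.1 in RT7 and 13.2 in RT10), Zfp143 with Znfx1 and Zfas1 (12.6 and 19.9), Mdc1 with Snhg9 (15.9 and 13.4), Asf1b with a site inside Etv5 (15.7 and 11.8) and Rtn4 with Rab40c (13.7 and 13.4). Across the 23 shares compared below, intervals of the difference (Newcombe, 95%, not adjusted for the number of shares) are given in place of a test, and 3 of the 23 lay wholly on 1 side of 0. These intervals treat the missing and comparison sets as independent and do not use the pairing of sites.

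Protein-coding genes held the nearest gene end, within 500 bp, at 149 of the 347 missing sites, or 42.9% (37.7 to 48.3). In the paired sets they did so at 82 of 172 missing sites (47.7%) and 62 of 172 comparison sites (36.0%), a difference of 11.6 percentage points (1.21 to 21.7). The interval included 0 in 4 of the 14 alternatives that gave one, among them no pairing (4.23 points, −1.99 to 10.5). Counting any protein-coding end within 500 bp, nearest or not, gave 48.8% and 43.6%, a difference of 5.23 points (−5.26 to 15.6). Sites within 500 bp of the ends of 2 or more protein-coding genes made up 22 of 172 and 11 of 172, or 12.8% and 6.40%, a difference of 6.40 points (0.105 to 12.8). Over all 347 there were 33 such sites (9.51%, 6.64 to 13.1), beside 7.93% of the 744 kept sites and 7.51% of all shared sites. At mean scores between the quartiles of the missing sites, 11 of 28 such shared sites were missing (39.3%). For shared sites with a protein-coding end nearest that share was 41.1%. Among the 33 were Prkdc with Mcm4, a DNA-dependent kinase and a subunit of the replicative helicase (6.49 in RT7 and 6.26 in RT10), Ncapd2 with Mrpl51 (7.57 and 5.84), Tacc3 with Tmem129 (7.45 and 8.72) and Cdc45 with Ufd1 (6.49 and 3.71).

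Genes of RNA polymerase III were nearly absent from the missing sites. The single one was n-THgtg2, a histidine tRNA gene on chromosome 3, whose site scored 3.01 in RT7 and 6.77 in RT10 and lay 7744 and 7823 bp from the nearest 4-OHT summits. In all 135 shared sites had such a gene end within 500 bp, and 0.741% (0.0188 to 4.06) of them were missing, beside 20% of all shared sites. Their median mean score was 19.7. In the paired sets 1 of 172 missing and 6 of 172 comparison sites had one, a difference of −2.91 points (−6.85 to 0.332). Between the quartiles of the missing sites' mean scores (3.89 to 6.65), 1 of 17 shared sites at RNA polymerase III genes was missing (5.88%, 0.149 to 28.7), against 62 of 151 with a protein-coding gene end nearest (41.1%, 33.1 to 49.3), 62 of 148 inside genes (41.9%, 33.8 to 50.3) and 35 of 107 between genes (32.7%, 24.0 to 42.5).

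No gene end lay within 500 bp of 177 missing sites (51.0%, 45.6 to 56.4), of which 108 were inside a gene and 69 between genes. In the paired sets the shares without a gene end were 45.3% and 48.3%, a difference of −2.91 points (−13.3 to 7.56). Without pairing the sign turned, to 11.5 points (5.16 to 17.7), and with comparison sites weighted to the scores of all missing sites it was 5.85 points. At 24 of the 177 sites a further annotated start of a protein-coding gene lay within 500 bp. Another RT7 EtOH summit lay within 5 kb of 28 sites in each paired set (16.3%), and of 30.5% of all 744 kept sites. The RT7 and RT10 EtOH summits of a missing site lay 65 bp apart in the median, and 60.5 and 63 bp in the paired sets.

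**Figure D3:**
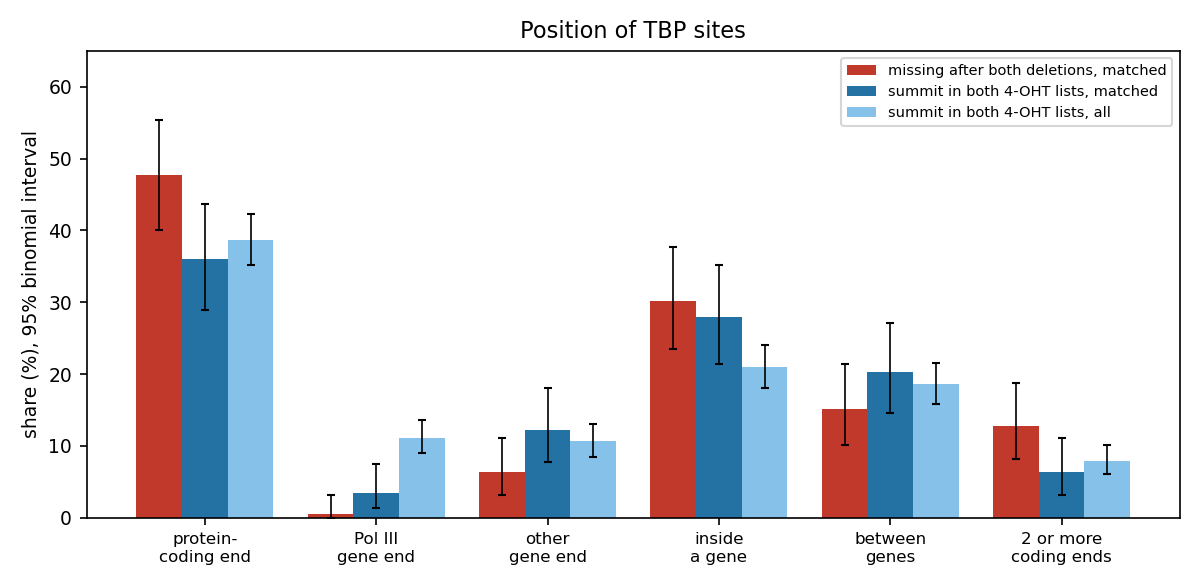
Percent of sites by the gene end nearest to them within 500 bp, or by their place inside or between genes, and percent with ends of 2 or more protein-coding genes, with exact 95% binomial intervals, for the 172 paired missing sites, their 172 comparison sites and all 744 sites with a summit in both 4-OHT lists. The missing sites show 47.7% at protein-coding ends against 36.0% in the comparison set, and 0.581% against 3.49% at RNA polymerase III genes.

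RefSeq promoters of protein-coding genes, 300 bases from 250 before to 50 after the start, could be assigned to 151 missing sites with a start within 500 bp, giving 149 different promoters, and to 76 and 72 sites of the paired sets. The distance of the summits from the start was similar in the median. In RT7 EtOH the median was 118 bp before the start for the missing sites (quartiles −212 and 3.5) and 119 bp before it in the comparison set. Over all sites with an assigned promoter the summit preceded the start at 74.2% of 151 missing and 76.6% of 299 kept sites. In the paired sets it did so at 62 of 76 missing sites and 49 of 72 comparison sites (81.6% and 68.1%), a difference of 13.5 points (−0.466 to 27.0). The order of the shares thus depended on the pairing. The median GC content of the promoters in the paired sets was 61.2% for missing and 61.5% for comparison sites, with a median observed to expected CpG ratio of 0.770 (quartiles 0.678 and 0.922) and 0.871 (0.738 and 1.01), against 56.3% and 0.567 over all 21263 protein-coding promoters of the table.

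**Figure D4:**
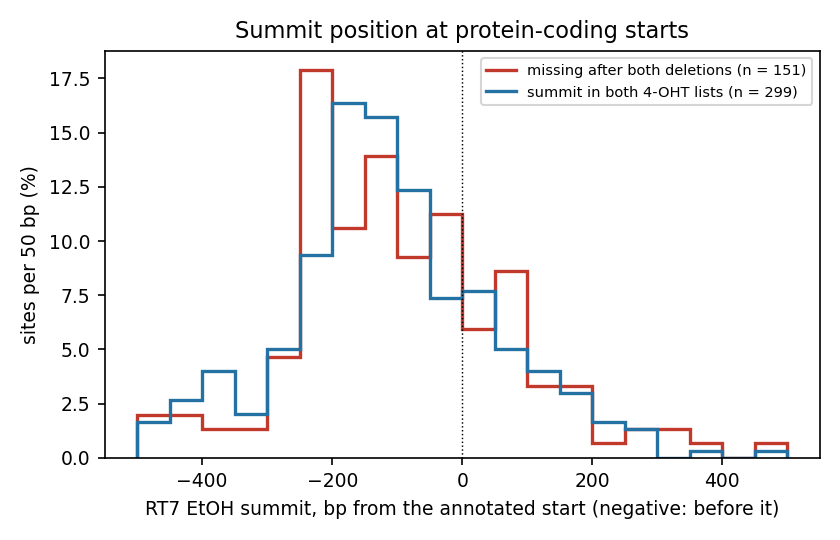
Distance of the RT7 EtOH summit from the nearest annotated protein-coding start within 500 bp (x axis, bp, negative before the start) as percent of sites per 50 bp, for 151 missing sites and 299 sites with a summit in both 4-OHT lists. Both distributions lie mostly before the start, with medians of −118 and −120 bp.

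TATAAA or TATATA lay between 50 and 15 bases before the start, on the gene's strand, in 4 of 149 promoters at missing sites, or 2.68% (0.736 to 6.73). In the paired sets 2 of 76 missing and 7 of 72 comparison promoters had one (2.63% and 9.72%), a difference of −7.09 points (−16.3 to 1.04). The share was 11% over all 299 promoters of sites with a summit in both 4-OHT lists and 3.9% over all protein-coding promoters. Anywhere in the 300 bases and on either strand, the motif was in 5 of 76 and 16 of 72 (6.58% and 22.2%), a difference of −15.6 points (−27.1 to −4.35), against 16% of all protein-coding promoters. Of the 47 shared sites whose promoter had the TATA box before the start, 33 had a summit in both 4-OHT lists, such as Taf13 and Slit2, and 4 were missing (8.51%, 2.37 to 20.4), against 147 of 627 without it (23.4%, 20.2 to 27.0). The median mean score of these TATA sites was 14.4, against 8.09 for the others. Among sites with a mean score up to the upper quartile of the missing sites (6.65), 4 of 11 with a TATA box were missing (36.4%, 10.9 to 69.2) and 99 of 224 without it (44.2%, 37.6 to 51.0), so that a difference was not detectable at low scores.

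CCAAT boxes were common at the missing sites of high score. Of the 17 promoters assigned to the 20 named protein-coding sites, 14 held CCAAT or its reverse complement, 14 held the GC box GGGCGG, and 0 held TATAAA or TATATA in the 300 bases. TGACG, described below, was in 10 of the 17. Over the 669 promoters of all shared sites the shares were 56.4% for CCAAT, 72.8% for the GC box, 18.4% for TATAAA or TATATA and 38.1% for TGACG. No comparison promoters of like score were counted beside these 17. The box began 54 bases before the start at Hnrnpc, 52 at Zfp143, 75 at Mdc1, 39 at Asf1b, 33 at Rtn4, 77 at Ddit3, 50 at Nufip2, 51 at Zfp42, 55 at Ggps1 and Nfatc2ip, 88 at Nr1d2 and 175 at Nabp1, counting the box nearest before the start. In the promoters assigned to them Eif5 and Rps21 had the box only after the start, and Ephb3, Catsperd and Wdr18 had none in the 300 bases. Over the paired sets CCAAT was in 63.2% of missing and 55.6% of comparison promoters, a difference of 7.60 points (−8.05 to 22.8), and in 38.2% of all protein-coding promoters. Over all 149 promoters at missing sites CCAAT was in 55.7%, beside 58.2% of the 299 at kept sites. With only sites scoring at least 5 in both EtOH lists the shares were 30 of 44 and 16 of 37 (68.2% and 43.2%), a difference of 24.9 points (3.30 to 43.7). With the EtOH lists cut to as many summits as the 4-OHT lists held they were 73.2% and 37.5%, a difference of 35.7 points (14.1 to 53.0). The interval included 0 in the other 10 of the 12 alternatives that gave one. Without pairing, and with comparison sites weighted to the scores of all 347 missing sites, the difference was −2.49 and −4.86 points, so its sign depended on which scores were compared.

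The other motifs were searched on both strands of the 300 bases. GGGCGG was in 78.9% of paired missing and 70.8% of comparison promoters (46.2% of all protein-coding promoters), the ETS core CCGGAA in 28.9% and 34.7% (18.7%), TGACG, a part of the cyclic AMP response element, in 34.2% and 41.7% (23.6%), and the E box CACGTG in 10.5% and 18.1% (7.84%). AANATGGCG, for YY1, was in 3.95% and 8.33% (3.12%), the NRF1 motif in 7.89% and 9.72% (6.38%), and the ZNF143 motif in 1.32% and 4.17% (1.35%). In the main setting the interval of the difference included 0 for each of these 7. The E box share was smaller at missing sites in 13 of 13 alternatives, with an interval that included 0 in 10 of 12. The exceptions were sites with no other EtOH summit within 5 kb (−25.6 to −0.883) and no pairing (−15.5 to −2.17). For YY1 the interval included 0 in 11 of 12, but not without pairing (−9.54 to −0.302). For the other motifs of the 7 it included 0 in 12 of 12.

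**Figure D5:**
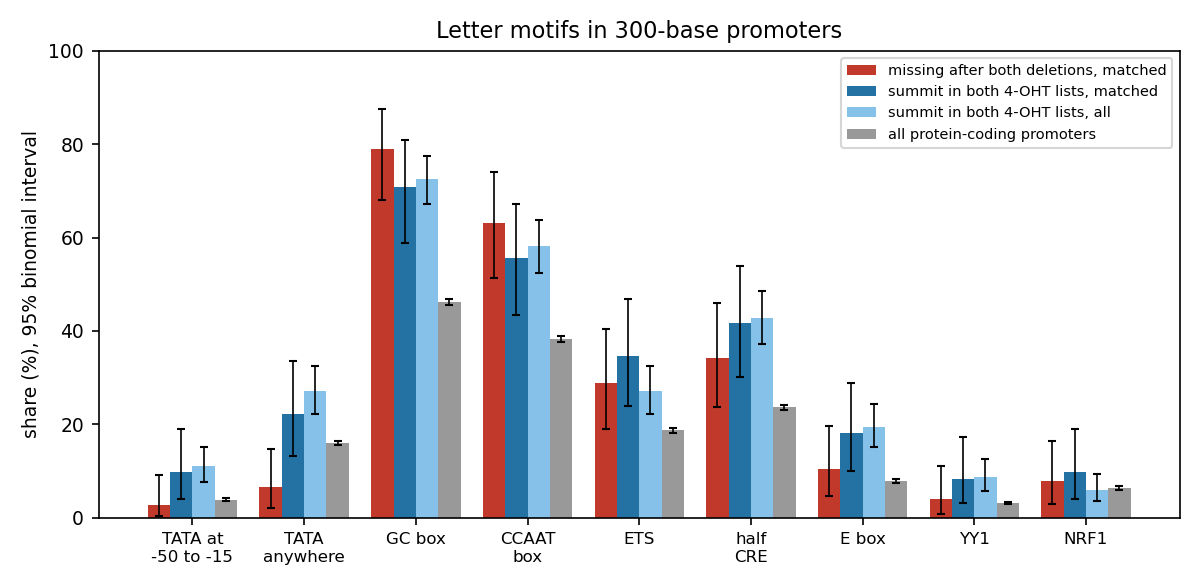
Percent of 300-base protein-coding promoters that hold each motif, with exact 95% binomial intervals, for the paired missing sites (76 promoters), their comparison sites (72), all sites with a summit in both 4-OHT lists (299) and all promoters of the table (21263). TATA motifs anywhere are in 6.58% of the missing and 22.2% of the comparison promoters.

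Genes were then counted by function in 26 lists, with a gene taken as missing when a missing site lay within 500 bp of either end and no site there had a summit in both 4-OHT lists. Of 831 protein-coding genes with a shared site at an end, 22.4% were missing and 46.3% had a site with a summit in both 4-OHT lists, and the median over these genes of the highest mean score was 8.87. In the pluripotency list 3 of 10 genes with a shared site were missing. These were Zfp42, Trim28, a corepressor that silences transposable elements (5.08 in RT7 and 10.8 in RT10), and Klf5, a transcription factor (3.83 and 4.06). Nanog (22.7 and 41.3), Klf2 (9.25 and 19.9), Tfcp2l1 (14.8 and 7.18) and Stat3 (18.2 and 10.8) had a summit in both 4-OHT lists. Of 10 ES cell markers 5 had a summit in RT7 EtOH and 7 in RT10 EtOH. Pou5f1, Esrrb and Klf4 had none. Of the fibroblast markers Fn1 alone had one, in both EtOH lists and at a missing site (7.34 and 3.75), and Eomes was the single marker of differentiating cells with one.

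Among cytoplasmic ribosomal protein genes 4 of 23 were missing, Rps21, Rps6 (5.57 in RT7 and 4.93 in RT10), Rpl6 (5.57 and 4.06) and the ribosomal protein-like gene Rpl7l1 (9.42 and 4.93), while 13 had a summit in both 4-OHT lists, led by Rps26 (51.8 and 64.8). Translation factors had 3 of 11, Eif5, Eif2ak3, which encodes the stress kinase PERK (9.03 and 2.95), and Eef1d (3.01 and 2.44). Splicing and RNA-binding genes had 4 of 16, among them Hnrnpc, Ddx39b (2.19 and 4.17) and Rbm39 (2.19 and 9.24). Mitochondrial ribosomal proteins had 1 of 5, Mrpl51, and respiratory subunits 1 of 6, Uqcrq. These shares, 16.7% to 27.3%, lay around the 22.4% of all protein-coding genes.

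Heat shock genes had 3 of 9 missing, Hspa1b, an inducible HSP70 (9.42 in RT7 and 4.06 in RT10), Hsp90b1, the HSP90 of the endoplasmic reticulum (5.57 and 7.73), and Hspa4 (3.01 and 4.03), and 6 with a summit in both 4-OHT lists, such as Hspa8 (41.7 and 39.5) and Hspa5 (21.8 and 15.6). Cytoskeleton genes had 2 of 6, Cfl1, cofilin (10.4 and 5.84), and Tubb5, a beta-tubulin (9.42 and 6.77). Tubb4b (59.8 and 99.2) had a summit in both 4-OHT lists. In the glycolysis list Gapdh was missing by the rule (3.01 and 3.37) with 4-OHT summits 1041 and 1045 bp away, and Cfl1 had its nearest ones at 1937 and 1350 bp, so that both depend on the distance kept free. Cholesterol synthesis genes had 2 of 3, Ggps1 and Acat2 (1.51 and 3.23), DNA damage response genes 2 of 5, Mdc1 and Gadd45a (4.68 and 4.06), and cell cycle genes 1 of 5, Mcm4. Zinc finger genes had 5 of 20, Zfp143, Zfp42, Zfp788, Zfp868 and Zfp882, the last 3 with scores of 3.57 to 5.21. The interval of the missing share included the 22.4% of all protein-coding genes in each of these lists. It was 7.49 to 70.1% for heat shock, 4.33 to 77.7% for cytoskeleton, 9.43 to 99.2% for cholesterol synthesis and 5.27 to 85.3% for DNA damage response genes.

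Chromatin regulators had 3 of 11 missing, Arid4b, Gatad2b, a subunit of NuRD (7.45 in RT7 and 3.23 in RT10), and Brd2 (1.51 and 2.2), whose scores are near the lowest of both lists. The interval of this share, 6.02 to 61.0%, included the 22.4% of all protein-coding genes. Among TFIID subunits Taf8 (5.57 and 2.44) was missing, 14 bp after its start, Taf13 (4.83 and 8.23) had a summit in both 4-OHT lists, and Taf15 was in neither class. The replication-dependent histone list had 2 of 30 missing, H2ac1 and H2bc1, which share 1 site on chromosome 13 (position 23934520), and 27 with a summit in both 4-OHT lists, with a median of 46.6 for the mean score. The 1 site at H2ac1 and H2bc1 scored 3.01 in RT7 and 5.84 in RT10.

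The immediate early list had 0 of 10 missing (up to 30.8%) and 7 genes with a summit in both 4-OHT lists (median mean score 22.5), for example Fos (26.8 and 39.5) and Klf6 (60.9 and 58.6). At Jun, with scores of 5.57 and 2.00, an RT7 4-OHT summit lay 166 bp away and the nearest RT10 4-OHT summit 648447 bp. Small nuclear RNA genes, counted here with the U3 genes, had 0 of 9 missing (up to 33.6%) and all 9 with a summit in both 4-OHT lists, including Rnu3b2 at scores of 3.01 and 4.58. Proteasome and ubiquitin genes had 0 of 8, and RNA polymerase II and general factors and Mediator 0 of 3 each, and SAGA and ATAC subunits 0 of 2. The upper limits of these shares of 0, at 30.8% or more, lay above the 22.4% of all protein-coding genes. The lineage and two-cell-like lists had no gene with a shared site. Small nucleolar RNA hosts had 1 of 8 missing, Snhg3.

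Near the distances of the rule, Gapdh (1041 bp from the nearest 4-OHT summit), a site inside Rpl36 (1149 bp) and Ackr3 (1195 bp) were just far enough from a 4-OHT summit to be taken, and a site between genes on chromosome 9 (997 bp), n-TTagt1 (988 bp) and a site inside Gm52564 (963 bp) were just too close. The EtOH summits at Ccm2 (250 bp apart), in Ctsl (250 bp) and at a site between genes on chromosome 19 (249 bp) were just close enough to count as shared, and those at Ier2 (253 bp), in Map1lc3b (256 bp) and at Hmgn2 (258 bp) were not. For most members the distance was large. The median distance to the nearest 4-OHT summit was 252246 bp in RT7 and 119481 bp in RT10, and 39 of 347 sites had one within 5 kb in either list.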

How the data were processed

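TBP CUT&RUN was analysed from 4 deposited summit lists, 1 per line and treatment. As names and values of the peaks show, the authors deposited the −log10 of a q-value for each summit, with IgG as the control. Reads were processed with cutadapt 4.0, Bowtie2 2.4.4, SAMtools 1.15.1, bedtools, deepTools and MACS2 2.2.7.1 on mm10, per the submitters' processing notes, without roles or settings. The calling threshold, the pooling of the 2 TBP libraries and the use of the yeast spike-in are not given in the sources used here. Titles were used for the IgG libraries of RT7 EtOH and RT10 4-OHT, whose treatment labels say otherwise. Depth is unknown.

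Summits were matched by distance. Each list had 1 summit per peak, and 2 mitochondrial summits per list were left out. Gene ends came from a RefSeq table of GRCm38.p6 (49997 genes with coordinates, 493 of them of RNA polymerase III), and starts and sequences from RefSeq promoters of the same assembly, which cover no gene of chromosome 18 (9 missing sites). Missing sites, from the highest mean score down, were paired 1 to 1 with comparison sites. The site rule and gene lists were chosen with earlier results of these data known. Named sites were the 20 highest at protein-coding ends, the 5 highest of each other class, members of the gene lists (some are not reported here), 5 comparison sites, and the 3 nearest each distance of the rule. The RNA polymerase III site, sites at several protein-coding ends, promoters with a TATA box and kept list members were named after their values were seen. Shares have exact Clopper-Pearson intervals, and no p-value is given, as each group has 1 list. Python 3.11.15, NumPy 2.4.6, pandas 2.3.3, SciPy 1.17.1, statsmodels 0.14.6 (Newcombe intervals) and matplotlib 3.10.9 were used, and the code was tested on simulated lists. Alternatives are given in the closing section.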

Additional observations from a re-analysis of the deposited data

How the results depend on the processing

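Number and position of the missing sites depended on the scores admitted. With a score of at least 5 in both EtOH lists there were 84 sites (8.21% of shared sites; 347 and 20% otherwise), with 57.1% at protein-coding ends, 39.3% away from gene ends, 0% at RNA polymerase III genes, 0% of promoters with a TATA box before the start, and 15 genes of the fixed lists in place of 39. With EtOH lists shortened to the 4-OHT length, tied scores taken by position, there were 88 sites (8.67%), 50% at protein-coding ends, 0% at RNA polymerase III genes (7.69% of comparison sites) and 15 list genes. Keeping 5000 bp free of 4-OHT summits gave 17.8% of shared sites, of which 6.49% had another EtOH summit within 5 kb. Sites with no other EtOH summit within 5 kb, among which that share is 0% by construction in missing and comparison sites, were missing in 23.1%. Gene ends within 250 bp gave 35.7% at protein-coding ends and 59.1% away from gene ends, and within 1000 bp 48.4% and 43.8%. Comparison summits within 1000 bp gave comparison shares of 8.49% at RNA polymerase III genes and 25.9% with a neighbour, and no matching gave 13.0%, 30.5% and 39.5% away from gene ends. TATA motifs anywhere were in 10.7% of all missing and 22.2% of comparison promoters. Of all values recomputed in 16 alternatives, 505 moved by less than their interval, or by less than 1.5 times for counts, and 50 by more. The missing sites had the larger share at protein-coding ends in 15 of 15 alternatives (by 4.23 to 24.1 points). The interval included 0 with EtOH summits within 500 bp (−1.35 to 18.7), no 4-OHT summit within 500 bp (−1.18 to 19.2), sites from the RT10 list (−2.29 to 18.2) and no matching (−1.99 to 10.5). The missing sites had the smaller share of TATA boxes in 14 of 14 (by −15.6 to −4.91 points), where −15.6 is for TATA motifs anywhere. For TATA boxes the interval included 0 in 10 of the 13 alternatives that gave one. The share away from gene ends was smaller in 13 of 15, and larger with no matching (11.5 points) and with weighting by score (5.85). No paired analysis was possible because each group has 1 list without replicate numbers, and for the same reason no replicate could be left out. Depth, which limits what can be called missing, is unknown.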

Other observations

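Shared sites that were missing in 1 line only had promoters with few TATA boxes as well. TATAAA or TATATA lay between 50 and 15 bases before the start in 4 of 147 promoters of sites missing in RT7 alone (2.72%, 0.746 to 6.82) and in 0 of 45 of those missing in RT10 alone (0%, 0 to 7.87), against 39 of 328 where neither line was missing (11.9%, 8.59 to 15.9). The median scores of these groups were 5.57 in RT7 for both groups missing in 1 line and 13.0 where neither was missing, so that TATA box and score moved together, and their parts were not separated.

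By chromosome, the missing sites made up 9.29% (5.04 to 15.4) of the 140 shared sites of chromosome 13 and 11.1% (4.59 to 21.6) of the 63 of chromosome 9. They made up 28.6% (17.3 to 42.2) of the 56 of chromosome 14 and 27.6% (18.5 to 38.2) of the 87 of chromosome 17, beside 20% over all chromosomes. Chromosome 13 carries histone and tRNA gene clusters. The median mean score was 46.6 over the histone list and 19.7 at RNA polymerase III genes. Chromosomes were not compared at like scores or like spacing of summits, so a part of the clusters in the low share was not tested. These chromosomes were named after their values were seen.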
